A study of Mus musculus with 12 samples.

Results

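The proteasome is the protease that breaks down proteins tagged with ubiquitin, and its subunits are encoded by genes whose mouse symbols begin with Psma to Psmg. In RNA from heart ventricles, 54 gene symbols of this form (Psma, Psmb, Psmc, Psmd, Psme, Psmf or Psmg and a number) were found, of which 50 are annotated as protein coding. The 49 described here are those protein-coding genes whose value reached 10 or more in 3 or more of 12 libraries, as 13865 genes in all did. The gene left out was Psmb11, the form of a catalytic subunit found in thymus epithelium, which had 0 reads in every library. The rule uses symbol, gene type and level, and no measured change.

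The libraries came from LCHADD females, WT females, LCHADD males and WT males, with 3 in each group. LCHADD is a deficiency of long-chain 3-hydroxyacyl-CoA dehydrogenase, the enzyme activity with which the mitochondrial trifunctional protein oxidises long-chain fatty acids, and WT is wild type. All mice were untreated according to the labels, which give no age, no strain and no description of the altered allele, and do not say whether each library came from a separate mouse. Values are normalised reads, that is read counts divided by 1 size factor per library.

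The core of the proteasome is a barrel of stacked rings: the outer rings are made of alpha subunits (Psma), which gate the entrance, and the inner rings of beta subunits (Psmb), some of which hold the proteolytic sites. A cap of ATPases (Psmc) and non-ATPase subunits (Psmd) binds ubiquitin chains, removes them, unfolds the substrate and feeds it into the core. Under interferon, and in immune cells, the catalytic beta subunits are replaced by those of the immunoproteasome (Psmb8, Psmb9 and Psmb10), which favours peptides for display on class I molecules, and the activators Psme1 and Psme2 can take the place of the cap. In the heart the proteasome turns over proteins of the contractile apparatus among many others. Mammalian cells with an impaired proteasome raise the transcription of core and cap genes together through the factor Nfe2l1.

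Reads assigned to genes numbered 15613668 to 23174936 per library. Genes of the mitochondrial genome took 31.0% to 37.9% of the reads in LCHADD libraries and 27.5% to 32.7% in WT libraries, the highest being LCHADD female 3. LCHADD female 2 had the lowest level of the cardiomyocyte markers, whose 9 genes summed to 561395 normalised reads there. Their sum was 844294 in the highest LCHADD female and 1028804 to 1114290 in WT libraries. The ventricle label was checked against 4 atrial markers. Sln had at most 1.14 and Myl7 at most 5.47 normalised reads in any library. Myl4 and Nr2f2 summed to 93.3 to 142 normalised reads in LCHADD libraries and 125 to 158 in WT libraries. Of these 2 genes, 1 fell with the sexes averaged (50%), against 20.6% of all tested genes. Hadha, which encodes the subunit with this enzyme activity, had 23343 to 25688 normalised reads in LCHADD females, against 21430 to 23126 in WT females. LCHADD males had 27283 to 28083, against 23402 to 25845 in WT males. Within each sex every LCHADD library lay above every WT library. Because the altered allele is not described, these values cannot be used to judge whether the genotype labels are right. In bulk tissue, fewer cells of a type and less RNA per cell cannot be told apart.

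In LCHADD ventricles, with the sexes averaged, most core and cap genes were higher and the activators Psme1, Psme2 and Psme4 were lower. The immunoproteasome subunits went in different directions. In females, 23 of the 49 genes rose (46.9%), against 16.7% of all tested genes, and 3 fell (6.12%), against 17.2% of all tested genes. In males, 5 rose (10.2%), against 7.71% of all tested genes, and 2 fell (4.08%), against 7.77%. These male shares were near and below those of all genes, so the male counts are no result about the members as a group. With the sexes averaged, 25 rose (51.0%), against 20.3% of all tested genes, 5 fell (10.2%), against 20.6%, and 19 did not pass. A gene passed at an adjusted p under 0.05 in limma's test with Benjamini-Hochberg adjustment over all 13865 genes, and all adjusted p-values are of this kind unless another tool is named. The median log2 change of the 49 genes was 0.24 in females, 0.12 in males and 0.16 with the sexes averaged, while over all genes it lay between -0.00347 and 1.97e-05. For 10 members (Psma3, Psma4, Psma5, Psma6, Psmb1, Psmb5, Psmb10, Psmc2, Psmd8 and Psmd11) all 6 LCHADD libraries lay above all 6 WT libraries, as they did for 9.82% of all genes, and for 1 member, Psme1, all 6 lay below, as for 9.91% of all genes. When libraries were scaled on nuclear reads alone, 28 of the 49 members rose and 2 fell in females, where 2884 of all 13865 genes rose. Rises then made up 59.6% of the calls over all genes in females, against 49.3% with the authors' scaling.

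The count of rises in males depended on single libraries. It was 3 without LCHADD male 1, LCHADD male 3 or WT male 1, 8 without LCHADD female 3 and 9 without LCHADD female 2, each of which enters the estimate of the spread. Without LCHADD male 3 or WT male 1, 1 member fell in males in place of 2, and without LCHADD male 1, WT female 2 or WT male 1, 3 members fell with the sexes averaged in place of 5.

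**Figure D1:**
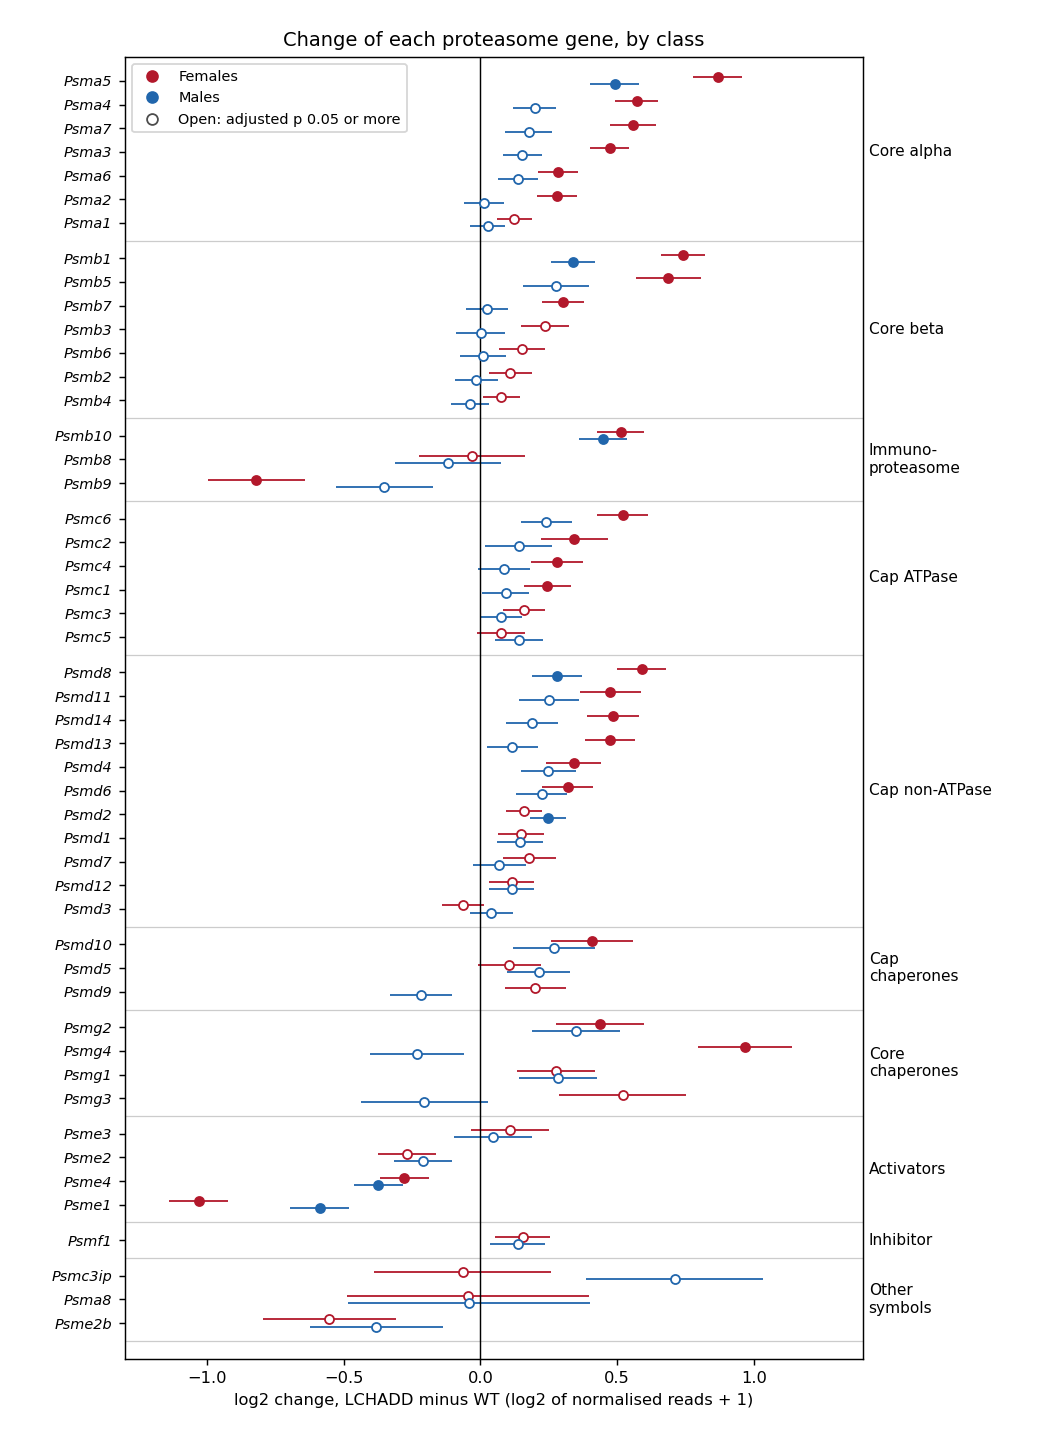
Log2 change, LCHADD minus WT, of each of the 49 genes in females (red) and males (blue), grouped by class, with bars of 1 SE of the fit (n = 3 libraries a group). Filled points passed at an adjusted p under 0.05: 26 genes in females and 7 in males. Core and cap genes lie mostly to the right of 0, and Psme1, Psme4 and Psmb9 to the left.

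Promoters of 5 members are shown, since the results turn on these genes: Psma5 had the largest rise among core genes, Psmb5 is a catalytic subunit that rose, Psmb6 is a catalytic subunit that did not pass, Psme1 had the largest fall, and Psmb8 is an immunoproteasome subunit that did not pass. Each sequence is the 250 bases before the gene's start in RefSeq, build GRCm38.p6, on the gene's own strand, 5′ to 3′. Capitals mark TGACNNNGC, the core of the antioxidant response element that Nfe2l1 and Nfe2l2 bind, in Psma5, Psmb5 and Psmb6, and TTCNNNGAA, the gamma-activated site, in Psme1 and Psmb8. Both strands were searched.
Psma5, chr3:108256676-108256925, plus strand, no match: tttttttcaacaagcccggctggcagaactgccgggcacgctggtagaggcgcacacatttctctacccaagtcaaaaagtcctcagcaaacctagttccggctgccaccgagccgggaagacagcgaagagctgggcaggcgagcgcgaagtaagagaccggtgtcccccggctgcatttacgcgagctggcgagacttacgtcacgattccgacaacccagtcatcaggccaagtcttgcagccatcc
Psmb5, chr14:54617996-54618245, minus strand: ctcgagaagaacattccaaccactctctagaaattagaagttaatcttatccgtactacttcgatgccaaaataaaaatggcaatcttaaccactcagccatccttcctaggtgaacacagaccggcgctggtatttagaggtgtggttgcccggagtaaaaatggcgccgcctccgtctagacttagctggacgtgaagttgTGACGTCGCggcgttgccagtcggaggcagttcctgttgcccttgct
Psmb6, chr11:70525107-70525356, plus strand: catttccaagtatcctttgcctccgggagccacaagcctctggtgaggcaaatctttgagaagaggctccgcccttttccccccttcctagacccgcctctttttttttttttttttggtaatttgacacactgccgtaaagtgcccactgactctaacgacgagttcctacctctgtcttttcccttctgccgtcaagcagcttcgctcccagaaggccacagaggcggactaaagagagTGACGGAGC
Psme1, chr14:55578244-55578493, plus strand, no match: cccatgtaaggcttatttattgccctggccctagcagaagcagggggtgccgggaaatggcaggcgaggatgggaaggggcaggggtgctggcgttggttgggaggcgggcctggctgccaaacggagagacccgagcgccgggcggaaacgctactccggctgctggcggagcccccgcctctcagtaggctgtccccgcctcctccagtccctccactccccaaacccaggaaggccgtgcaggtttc
Psmb8, chr17:34197945-34198194, plus strand: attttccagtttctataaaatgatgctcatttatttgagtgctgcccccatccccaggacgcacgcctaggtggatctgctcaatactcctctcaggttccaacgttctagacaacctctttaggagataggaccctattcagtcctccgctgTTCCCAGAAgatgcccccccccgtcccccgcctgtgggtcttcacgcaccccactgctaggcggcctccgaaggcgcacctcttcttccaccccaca

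RefSeq promoters were matched to 41 of the 49 members, and the others (Psma8, Psmb1, Psmb2, Psmb7, Psmc3, Psmd3, Psmd7 and Psmg2) are named only. For 38 of the 41, bases after the start were found in an annotated transcript of the gene, and all 41 stayed in the counts. TGACNNNGC was in 5 of the 41 windows (Psmb5, Psmb6, Psmc6, Psmd9 and Psmd12), that is 12.2%, and in 10.2% of all 32851 RefSeq windows of the same length. Of these 5 genes, Psmb5 and Psmc6 rose with the sexes averaged and 3 did not pass. CCAAT, the box bound by NF-Y, was in 14 of the 41 windows (34.1%) and in 33.9% of all windows. TTCNNNGAA was in 2 windows, those of Psmb8 and Psmg1, and in 7.02% of all windows. GAAANNGAA, the core of the interferon-stimulated element, was in 3 windows (Psmb3, Psmd4 and Psmd9) and in 7.13% of all windows. TGATGNAA, the core of the composite element of ATF4, was in 1 window, that of Psmd13, and in 3.45% of all windows. Matches of different motifs overlapped in 0 places among the members' windows.

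The alpha subunits form the outer rings of the core, and 6 of the 7 rose in females, all but Psma1, against 16.7% of all tested genes. In males Psma5 alone of the 7 passed, where 7.71% of all tested genes rose and 7.77% fell. Psma5 (ENSMUSG00000068749) had 1311, 1513 and 1201 normalised reads in LCHADD females 1, 2 and 3, against 711, 779 and 706 in WT females. In LCHADD males it had 1109, 1007 and 1075, against 734, 749.7 and 785 in WT males. The LCHADD libraries lay above the WT libraries in both sexes with no overlap. Its log2 change was 0.87, SE 0.09, adjusted p = 4.1e-06 in females and 0.49, SE 0.09, adjusted p = 0.0017 in males, and 0.68, SE 0.06, adjusted p = 9.2e-07 with the sexes averaged.

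Psma4, whose end lies in the gate of the barrel, had 1775, 1831 and 1515 normalised reads in LCHADD females, against 1157, 1129 and 1149 in WT females. LCHADD males had 1408, 1410.5 and 1541, against 1263, 1299.6 and 1234 in WT males. Neither sex showed an overlap between genotypes, and the log2 change passed in females (0.57, SE 0.08, adjusted p = 6.5e-05) but not in males (0.20, SE 0.08, adjusted p = 0.10). Psma7 (0.56 in females, SE 0.08) and Psma3 (0.47, SE 0.07) rose in females as well. Psma6 and Psma2 rose in females by log2 changes of 0.28 and 0.28 (SE 0.07 each). For Psma2 the male change was 0.01. Its call with the sexes averaged was lost under 9 of 24 alternatives. Among these were leaving out LCHADD female 1, LCHADD male 3, WT female 1, WT female 3, WT male 2 or WT male 3.

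Psma1 changed least of the alpha subunits. It had 1927, 1862 and 1781 normalised reads in LCHADD females, against 1749.8, 1653 and 1707 in WT females. Males had 1862, 1843 and 1856 in LCHADD and 1877, 1798 and 1784 in WT. The female libraries did not overlap, by a small margin, and the male libraries did. Its log2 change of 0.08, SE 0.04, adjusted p = 0.19 with the sexes averaged did not pass.

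The beta subunits form the inner rings, and 3 of the 7 rose in females (Psmb1, Psmb5 and Psmb7), against 16.7% of all tested genes. Psmb1 was the beta subunit that passed in males. Psmb1 (ENSMUSG00000014769), a structural subunit, had 3318, 3146 and 2842 normalised reads in LCHADD females, against 1856, 1862 and 1831 in WT females. LCHADD males had 2403, 2136 and 2631, against 1896, 1886 and 1860.2 in WT males. All 6 LCHADD libraries were above all 6 WT libraries, and the LCHADD libraries spread more widely. Its log2 change was 0.74, SE 0.08, adjusted p = 7.2e-06 in females and 0.34, SE 0.08, adjusted p = 0.010 in males, where the call was lost without LCHADD male 3.

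Psmb5, Psmb6 and Psmb7 carry the chymotrypsin-like, caspase-like and trypsin-like sites, and of these Psmb5 and Psmb7 rose in females while Psmb6 did not pass. Psmb5 (ENSMUSG00000022193) had 1389.9, 1109 and 894 normalised reads in LCHADD females, against 688, 697 and 687 in WT females, and 933, 848 and 916 in LCHADD males, against 782, 739.8 and 704 in WT males. Its LCHADD and WT libraries did not overlap, and LCHADD female 1 was the highest. Psmb5 had a log2 change of 0.69, SE 0.12, adjusted p = 0.00047 in females and 0.28, SE 0.12, adjusted p = 0.13 in males. Psmb7 had 1422, 1219 and 1342 normalised reads in LCHADD females, against 1098, 1113 and 1014 in WT females, and 1227, 1246 and 1301 in LCHADD males, against 1267, 1287 and 1158 in WT males. Psmb7 rose in females with no overlap (0.30, SE 0.08, adjusted p = 0.0079), while its male libraries overlapped (0.02, SE 0.08, adjusted p = 0.87). Its call with the sexes averaged (0.16, SE 0.06, adjusted p = 0.028) was lost without LCHADD female 1, LCHADD male 3, WT female 3 or WT male 3. Exons of Psmb7 share 405 bases with Nek6 on the opposite strand, a gene that averaged 62.5 normalised reads, and the strand used in counting is not given in the sources used here.

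Psmb6, the third of these catalytic subunits, had 2698, 2371 and 2194 normalised reads in LCHADD females, against 2112, 2231 and 2164 in WT females. Males had 2049.9, 1876 and 2254 in LCHADD and 2082, 2021 and 2027 in WT. The genotypes overlapped in both sexes, and neither change passed (0.15, SE 0.08, adjusted p = 0.18 in females and 0.008, SE 0.08, adjusted p = 0.96 in males). Psmb4, a structural subunit, changed least of the beta subunits: it had 2078, 2030.2 and 1868 normalised reads in LCHADD females, 1853, 1944 and 1864 in WT females, 1772, 1621 and 1721 in LCHADD males and 1731, 1809 and 1705 in WT males. The structural subunits Psmb2 and Psmb3 did not pass either, with log2 changes with the sexes averaged of 0.05 and 0.12 (SE 0.06 each). Psmb3 stood close to the threshold in females (0.24, SE 0.09, adjusted p = 0.051) and passed there under 9 of the 25 alternatives tried, edgeR and DESeq2 among them.

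Over the 14 core genes together, 9 rose in females, 2 in males and 9 with the sexes averaged, against 16.7%, 7.71% and 20.3% of all tested genes. The median log2 change of the core genes was 0.29 in females, 0.08 in males and 0.19 with the sexes averaged. Their summed level was 24704 ± 1570.1 normalised reads in LCHADD females, against 19058 ± 376 in WT females, and 21045 ± 1114 in LCHADD males, against 19385 ± 407 in WT males (mean ± SD, n = 3). The mean log2 distance of the core genes from the WT mean of the same sex ranged from 0.29 to 0.47 in LCHADD females and from -0.03 to 0.03 in WT females. In LCHADD males it ranged from 0.06 to 0.20, and in WT males from -0.03 to 0.03. The count of core genes that rose in males was 4 without LCHADD female 3 and 1 without LCHADD male 3.

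**Figure D2:**
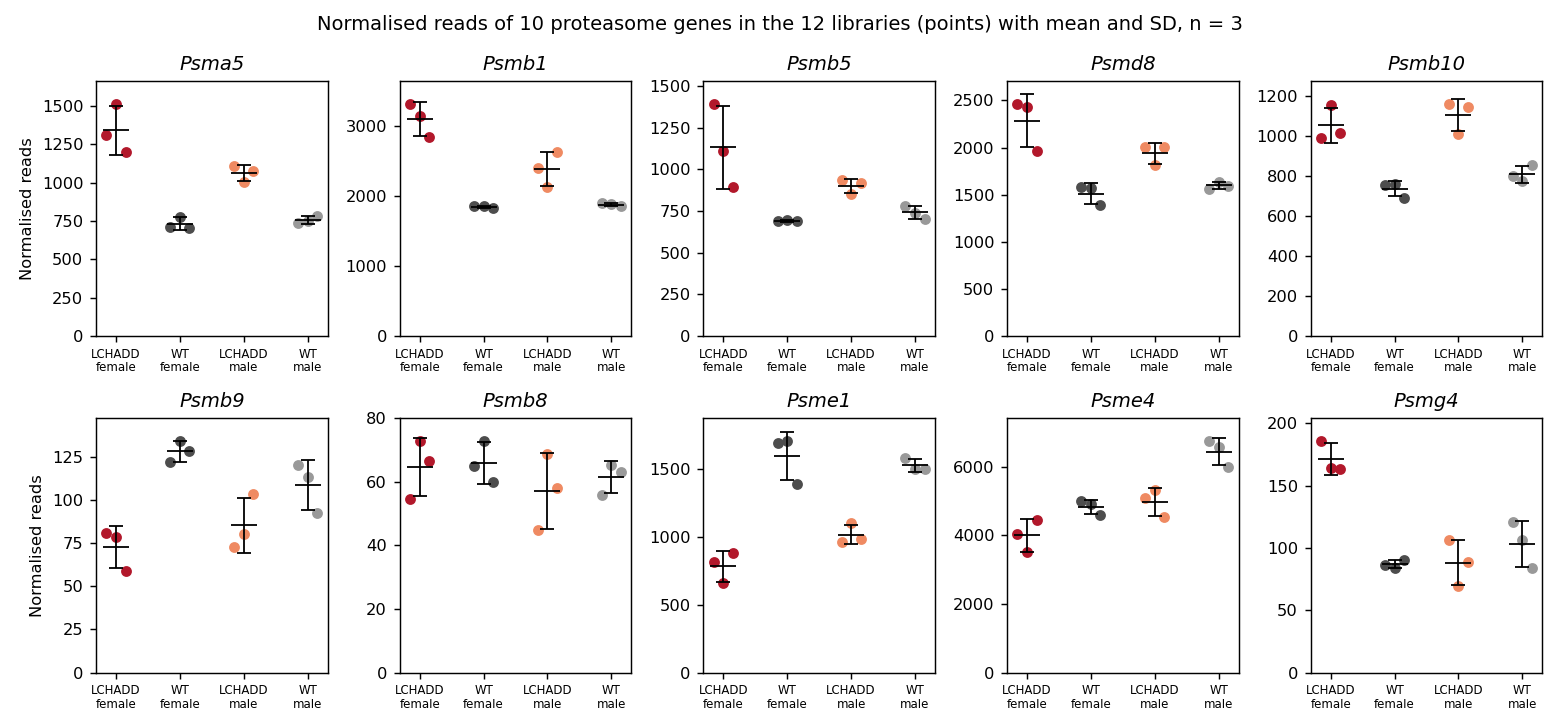
Normalised reads (vertical axes, from 0) of 10 members in each of the 12 libraries, with the mean and SD of each group (n = 3). Psma5, Psmb1, Psmb5, Psmd8 and Psmb10 were higher in every LCHADD library than in every WT library, Psme1 was lower in every LCHADD library, and Psmg4 was higher in LCHADD females, where the male libraries overlapped.

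Of the immunoproteasome subunits, Psmb10 rose in both sexes, Psmb9 fell in females and Psmb8 did not pass in either sex. Psmb10 (ENSMUSG00000031897), which takes the place of Psmb7, had 989.7, 1152 and 1013 normalised reads in LCHADD females, against 756, 758 and 692 in WT females. LCHADD males had 1158, 1009.8 and 1143, against 797, 772 and 854 in WT males. There was no overlap in either sex, and the log2 changes were 0.51, SE 0.09, adjusted p = 0.00035 in females and 0.45, SE 0.09, adjusted p = 0.0028 in males.

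Psmb9 (ENSMUSG00000096727), which takes the place of Psmb6, had 80.9, 78.6 and 59.2 normalised reads in LCHADD females, against 122, 134 and 128 in WT females. Its male libraries had 72.9, 80.1 and 104 in LCHADD and 121, 113 and 92.5 in WT. LCHADD females lay below WT females without overlap (-0.82, SE 0.18, adjusted p = 0.0023), and the male libraries overlapped (-0.35, SE 0.18, adjusted p = 0.20). Exons of Psmb9 share 212 bases, 5.79% of its exonic length, with Tap1 on the opposite strand, and Tap1, the peptide transporter of class I presentation, fell in females too (log2 change -0.70, SE 0.20, adjusted p = 0.013). Reads in the shared bases cannot be told apart without the strand. Psmb8, which takes the place of Psmb5, had 54.7, 72.8 and 66.5 normalised reads in LCHADD females, against 65.0, 72.8 and 59.9 in WT females, and 44.8, 68.7 and 58.0 in LCHADD males, against 55.8, 65.3 and 63.1 in WT males. The genotypes overlapped in both sexes, and the log2 change was -0.08, SE 0.14, adjusted p = 0.69 with the sexes averaged.

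Per kilobase of the principal transcript, Psmb8 and Psmb9 were far below the subunits they replace, and Psmb10 was not. Over the 12 libraries Psmb8 averaged 38.3 and Psmb9 73.1 normalised reads per kilobase, against 963 for Psmb5 and 2724 for Psmb6, while Psmb10 averaged 705 and Psmb7 1056. As a share of the pair Psmb8 plus Psmb5, Psmb8 made up 3.19% ± 0.95 in LCHADD females, against 5.00% ± 0.43 in WT females, and 3.41% ± 0.85 in LCHADD males, against 4.39% ± 0.52 in WT males (mean ± SD, n = 3). Every LCHADD female lay below every WT female for this share, while the males overlapped. As a share of Psmb9 plus Psmb6, Psmb9 made up 1.74% ± 0.18 in LCHADD females, against 3.37% ± 0.068 in WT females, and 2.39% ± 0.30 in LCHADD males, against 3.04% ± 0.37 in WT males. As a share of Psmb10 plus Psmb7, Psmb10 made up 41.2% ± 3.8 in LCHADD females, against 37.7% ± 0.15 in WT females, and 43.7% ± 1.9 in LCHADD males, against 36.6% ± 2.5 in WT males. The Psmb9 share was lower in every LCHADD female than in every WT female, and the Psmb10 share was higher in every LCHADD library than in the WT libraries of its sex. The shares were not tested.

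**Figure D3:**
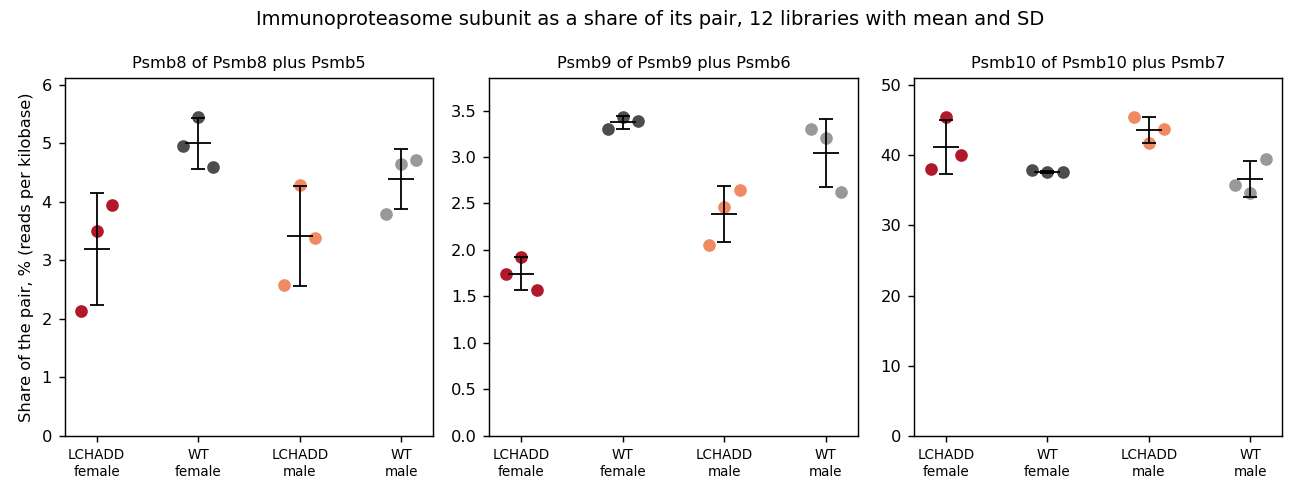
Share of each immunoproteasome subunit in the pair it forms with the subunit it replaces, in percent of their summed normalised reads per kilobase (vertical axes, from 0), in each library, with mean and SD (n = 3). Psmb8 and Psmb9 made up at most 5.45% of their pairs in any library, and Psmb10 lay between 34.7% and 45.5%.

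Genes of class I antigen processing, most of them induced by interferon as the immunoproteasome is, were lower in LCHADD. All 11 of a list of such genes fell with the sexes averaged (100%), against 20.6% of all tested genes. In females 9 fell (81.8%), against 17.2% of all tested genes, and in males 3 (27.3%), against 7.77%. The median log2 change of these genes was -0.45 with the sexes averaged. Their summed level was 7202 to 8811 normalised reads in LCHADD libraries and 9452 to 11730 in WT libraries. Irf7, an interferon regulatory factor, had a log2 change of -0.68 (SE 0.14), Nlrc5, the activator of class I transcription, of -0.55 (SE 0.19), and Irf9 of -0.52 (SE 0.13). Of the leukocyte markers, 11 of 15 were tested and their summed level ranged from 3060 to 4096 normalised reads in LCHADD libraries and from 3209 to 3995 in WT libraries, Cd3e was at 0 in 4 libraries and reached at most 5.47, and only Cd74 passed with the sexes averaged (log2 change -0.28). In females Cd68 and Adgre1, markers of macrophages, rose by log2 changes of 0.66 and 0.61, that is 18.2% of the 11 tested, against 16.7% of all tested genes. There 1 of the 11 fell and 8 did not pass, and in males 0 passed. The median log2 change of the 11 was 0.20 in females and -0.16 in males. The part of cell makeup in the immunoproteasome values was not tested.

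The ATPases of the cap form the ring that unfolds substrates, and 4 of the 6 rose in females (Psmc1, Psmc2, Psmc4 and Psmc6), against 16.7% of all tested genes. In males 0 rose under limma, edgeR and DESeq2, while 7.71% of all tested genes did under limma. In limma's test 1 of the 6 had an unadjusted p under 0.05 there, as 29.7% of all genes had in males. Psmc6 had 1996, 2169 and 1785 normalised reads in LCHADD females, against 1359, 1416 and 1356 in WT females. LCHADD males had 1741, 1575 and 1765, against 1366, 1637 and 1313 in WT males. The female libraries did not overlap and the male ones did, through WT male 2. Psmc6 had a log2 change of 0.52, SE 0.09, adjusted p = 0.00058 in females and 0.24, SE 0.09, adjusted p = 0.096 in males.

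Psmc2 varied among the LCHADD females. It had 1628, 2279.7 and 1421 normalised reads in LCHADD females, against 1401, 1371 and 1344 in WT females, and LCHADD female 2 was the highest. LCHADD males had 1648, 1519 and 1506, against 1409, 1414 and 1411 in WT males. All 6 LCHADD libraries lay above all 6 WT libraries, but the call in females (0.34, SE 0.12, adjusted p = 0.042) was lost under 13 of 25 alternatives, among them leaving out LCHADD female 2, any LCHADD male or any WT library. Psmc1 and Psmc4 rose in females by log2 changes of 0.24 and 0.28, and these calls were lost under 10 and 8 alternatives. Psmc3 (0.12, SE 0.05, adjusted p = 0.093 with the sexes averaged) and Psmc5 did not pass. Psmc5, the ATPase that changed least, had 1679.7, 1753 and 1387 normalised reads in LCHADD females, 1447, 1608 and 1497 in WT females, 1660.1, 1612 and 1657 in LCHADD males and 1501, 1398 and 1577 in WT males.

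Of the 11 non-ATPase subunits of the cap, 6 rose in females, 2 in males and 7 with the sexes averaged. The matching shares of all tested genes were 16.7%, 7.71% and 20.3%. Psmd8, a subunit of the lid, had 2460.5, 2432 and 1958 normalised reads in LCHADD females, against 1577, 1572 and 1386 in WT females, and 2010.3, 1813 and 2003 in LCHADD males, against 1561, 1639 and 1596 in WT males. Its genotypes did not overlap in either sex. The log2 change was 0.59, SE 0.09, adjusted p = 0.00017 in females and 0.28, SE 0.09, adjusted p = 0.0496 in males, and the male call was lost under 12 of 25 alternatives, edgeR's quasi-likelihood test among them. Psmd11, a lid scaffold whose level is known to set proteasome assembly in human stem cells, had 1698, 2075 and 1375 normalised reads in LCHADD females, against 1243, 1187 and 1220.4 in WT females, and 1609, 1487 and 1539.7 in LCHADD males, against 1262, 1360.0 and 1271 in WT males. It rose in females without overlap (0.48, SE 0.11, adjusted p = 0.0038), and in males the libraries did not overlap either but the change did not pass (0.25, SE 0.11, adjusted p = 0.14).

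Psmd14, the deubiquitinase that removes ubiquitin chains at the cap, rose in females to 828 ± 50.1 normalised reads in LCHADD, against 591 ± 41.5 in WT (mean ± SD, n = 3; log2 change 0.49, SE 0.09, adjusted p = 0.0011). Psmd13, a lid subunit, rose there to 1522 ± 196, against 1090.3 ± 40.4 in WT (0.47, SE 0.09, adjusted p = 0.0011), and shares 342 exonic bases with Sirt3 on the opposite strand, which averaged 597 normalised reads. The ubiquitin receptor Psmd4 and the lid subunit Psmd6 rose in females by log2 changes of 0.34 and 0.32. These calls were lost under 4 and 5 of 25 alternatives. Among these were leaving out LCHADD female 1 or WT female 3 and, for Psmd6, WT female 2. Psmd2, a large scaffold of the base, passed in males (log2 change 0.25, SE 0.07, adjusted p = 0.020) and not in females (0.16, SE 0.07, adjusted p = 0.079), and its male call was lost without LCHADD male 1 or any of the WT males. Psmd1, a scaffold of the base, and the lid subunits Psmd7 and Psmd12 did not pass in any comparison, with log2 changes of 0.11 to 0.15 with the sexes averaged. Psmd3, which changed least, had 1648, 1708 and 1443 normalised reads in LCHADD females, 1609, 1695 and 1699 in WT females, 1784, 1749 and 1716 in LCHADD males and 1819.7, 1591 and 1701 in WT males.

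Over the 17 cap genes, 10 rose in females, 2 in males and 11 with the sexes averaged, against 16.7%, 7.71% and 20.3% of all tested genes. The median log2 change of the cap genes was 0.28 in females, 0.14 in males and 0.20 with the sexes averaged. Their summed level was 32181 ± 3088 normalised reads in LCHADD females, against 26747 ± 821 in WT females, and 30134 ± 928 in LCHADD males, against 26977 ± 428 in WT males (mean ± SD, n = 3). LCHADD female 3, the library with the largest mitochondrial share, was the lowest of the LCHADD females for the cap, at a mean log2 distance of 0.12 from the WT females, against 0.33 and 0.41 in LCHADD females 1 and 2. The count in females was 6 without LCHADD female 1 and 5 without WT female 3, and also 5 with LCHADD female 2 and WT female 3 both left out. In males it was 0 without LCHADD male 1, WT male 1 or WT male 3, 1 without LCHADD male 3, WT female 1, WT female 2 or WT male 2, and 5 without LCHADD female 2.

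**Figure D4:**
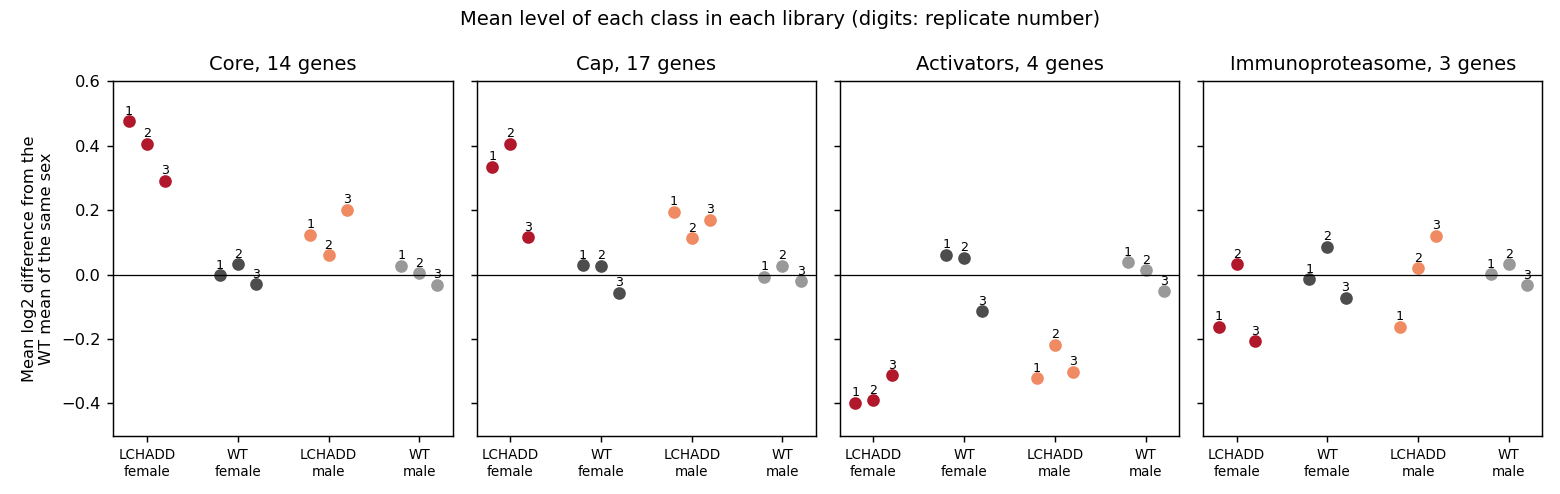
Mean log2 difference of each class from the WT mean of the same sex (vertical axis), for each library, with the replicate number beside each point. All LCHADD libraries lie above the WT libraries of their sex for the core and the cap and below them for the activators, while the immunoproteasome points overlap.

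Assembly of the cap and of the core needs chaperones that are not part of the finished particle. Of these, 4 of the 7 rose with the sexes averaged, against 20.3% of all tested genes. Psmd10, also known as gankyrin, a chaperone of the cap, had 176, 223 and 164 normalised reads in LCHADD females, against 136, 131 and 154 in WT females, and 132, 141 and 168 in LCHADD males, against 109, 127 and 129.7 in WT males. It rose in females with no overlap (0.41, SE 0.15, adjusted p = 0.047), a call lost under 13 of 25 alternatives. Psmd5 had 399, 343 and 286 normalised reads in LCHADD females, 333, 300.0 and 315 in WT females, 357, 347 and 381 in LCHADD males and 305, 330.4 and 301 in WT males, and did not pass. Psmd9 had 322, 277 and 265 normalised reads in LCHADD females, 238, 260.1 and 251 in WT females, 275, 272 and 237 in LCHADD males and 274, 314 and 324 in WT males. Its log2 change was 0.20 in females and -0.22 in males (SE 0.11 each), neither of which passed.

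Psmg1 and Psmg2 pair to assemble the alpha ring, and so do Psmg3 and Psmg4. Psmg4 (ENSMUSG00000071451) had 186, 164 and 164 normalised reads in LCHADD females, against 86.1, 84.1 and 90.7 in WT females. LCHADD males had 106, 69.8 and 88.8, against 121, 106 and 83.9 in WT males. In females the genotypes were far apart (0.97, SE 0.17, adjusted p = 0.00059), and in males they overlapped (-0.23, SE 0.17, adjusted p = 0.40). Psmg3 had 50.3, 35.9 and 39.1 normalised reads in LCHADD females, 31.3, 32.1 and 23.1 in WT females, 28.1, 29.8 and 33.0 in LCHADD males and 32.9, 41.9 and 31.1 in WT males, and its log2 changes of 0.52 in females and -0.21 in males (SE 0.23 each) did not pass. Psmg2 had 455, 700.0 and 383 normalised reads in LCHADD females, against 357, 346 and 397 in WT females, and 470.0, 417 and 453 in LCHADD males, against 349, 332 and 369 in WT males. LCHADD female 2 was far above the others and LCHADD female 3 lay within the range of WT females. The rise in females (0.44, SE 0.16, adjusted p = 0.047) was lost under 15 of 25 alternatives, leaving out any one of the libraries but LCHADD female 3 among them. Psmg1 rose with the sexes averaged (0.28, SE 0.10, adjusted p = 0.037), a call lost under 10 of 24 alternatives.

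Activators bind the core in place of the cap, and Psme1 and Psme4 fell in both sexes. Psme1 (ENSMUSG00000022216), which with Psme2 forms the interferon-inducible activator ring, had 814, 657 and 878 normalised reads in LCHADD females, against 1689, 1706 and 1389.8 in WT females. LCHADD males had 965, 1100.2 and 986, against 1579.7, 1498 and 1499.6 in WT males. It was lower in every LCHADD library than in every WT library. The log2 change was -1.03, SE 0.11, adjusted p = 4.9e-06 in females and -0.59, SE 0.11, adjusted p = 0.0019 in males, that is -0.81, SE 0.08, adjusted p = 1.1e-06 with the sexes averaged.

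Its partner Psme2 had 608, 536 and 629.6 normalised reads in LCHADD females, against 725, 763 and 649 in WT females, and 518, 606 and 665 in LCHADD males, against 740.0, 674 and 646 in WT males. The females did not overlap and the males did. Psme2 passed with the sexes averaged (-0.24, SE 0.07, adjusted p = 0.019), a call lost without LCHADD male 1, WT female 2 or WT male 1, and in neither sex alone. Psme2b, a close copy of Psme2 whose reads may be split between the copies, fell with the sexes averaged too (-0.47, SE 0.17, adjusted p = 0.041), a call lost under 14 of 24 alternatives. It had 36.1, 29.1 and 42.3 normalised reads in LCHADD females, against 54.0, 52.9 and 50.5 in WT females, and 22.9, 40.1 and 29.6 in LCHADD males, against 45.8, 41.9 and 32.0 in WT males. The females did not overlap and the males did, at levels far below those of Psme2.

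Psme4 (ENSMUSG00000040850), an activator of the nucleus that has been tied to histone breakdown, had 4045, 3509 and 4459.9 normalised reads in LCHADD females, against 5000.5, 4905 and 4609 in WT females. LCHADD males had 5080.4, 5318 and 4542, against 6760.0, 6574 and 5997 in WT males. Within each sex the genotypes did not overlap, and levels were higher in males of both genotypes, so that LCHADD males overlapped with WT females. For Psme4 the log2 change was -0.28, SE 0.09, adjusted p = 0.026 in females. That call was lost under 6 of 25 alternatives. Among these were leaving out LCHADD female 2, WT female 1 or WT female 2, and scaling on nuclear reads. In males the log2 change of Psme4 was -0.37, SE 0.09, adjusted p = 0.011, a call lost without LCHADD male 3 or WT male 1. Psme3, the third activator, had 955, 1579 and 983 normalised reads in LCHADD females, against 1119, 1044 and 1012 in WT females, and 1236, 1179 and 1115 in LCHADD males, against 1077, 1196 and 1144 in WT males. LCHADD female 2 was far above the others, and the change did not pass (0.08, SE 0.10, adjusted p = 0.56 with the sexes averaged).

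Psmf1, an inhibitor of the core in the test tube, had 444, 391 and 405 normalised reads in LCHADD females, against 380.3, 362 and 371 in WT females, and 421, 430.5 and 419.9 in LCHADD males, against 412, 334 and 416 in WT males. LCHADD libraries lay above WT libraries of the same sex, but the change did not pass (0.15, SE 0.07, adjusted p = 0.11 with the sexes averaged). The symbol rule also takes Psma8, the testis form of an alpha subunit, and Psmc3ip, a factor of meiotic recombination that is no proteasome subunit. Psma8 had 25.2, 15.5 and 12.7 normalised reads in LCHADD females, 16.4, 27.7 and 12.0 in WT females, 35.4, 9.16 and 18.2 in LCHADD males and 14.9, 22.2 and 19.9 in WT males. Psmc3ip had 27.3, 38.8 and 32.7 in LCHADD females, 36.0, 29.5 and 37.7 in WT females, 26.1, 28.6 and 39.8 in LCHADD males and 12.0, 16.0 and 32.9 in WT males. Both were at low levels with overlapping genotypes, and neither passed. Exons of Psmc3ip share 385 bases, 21.2% of its exonic length, with Mlx on the opposite strand, which averaged 230 normalised reads. Without the strand, reads in those bases cannot be told apart.

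Whether the change differed between the sexes was tested as the interaction of genotype and sex. None of the 49 genes passed under limma, where 0.00721% of all genes (1 gene) did, and 16 of the 49 (32.7%) had an unadjusted p under 0.05, against 9.83% of all genes. DESeq2 passed 2 members (Psma4 and Psmb1) and 126 genes in all (0.909%), and edgeR passed 0 members and 2 genes in all. Without LCHADD female 3, limma passed 3 members (Psma4, Psmb5 and Psmg4) and 186 genes in all (1.34%). Psmg4 had the smallest interaction p of the members: its log2 change was larger in females than in males by 1.20 (SE 0.24, adjusted p = 0.14). For Psmb1 the difference was 0.40 (adjusted p = 0.25), for Psma4 0.37 (adjusted p = 0.27) and for Psma5 0.38 (adjusted p = 0.34). The larger count of calls in females is no test of a difference between the sexes.

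The female and male changes rest on separate libraries and can be set side by side. For all 14 core genes the log2 change was larger in females than in males, and across these genes the changes had a Pearson r of 0.96 and a Spearman rho of 0.94. Across the 17 cap genes r was 0.65 and rho 0.60, with 13 genes larger in females. Over all 49 members r was 0.62, 42 had the same sign in both sexes and 37 were larger in females. Genes of a complex are not independent, so these are descriptions of how the members rank.

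**Figure D5:**
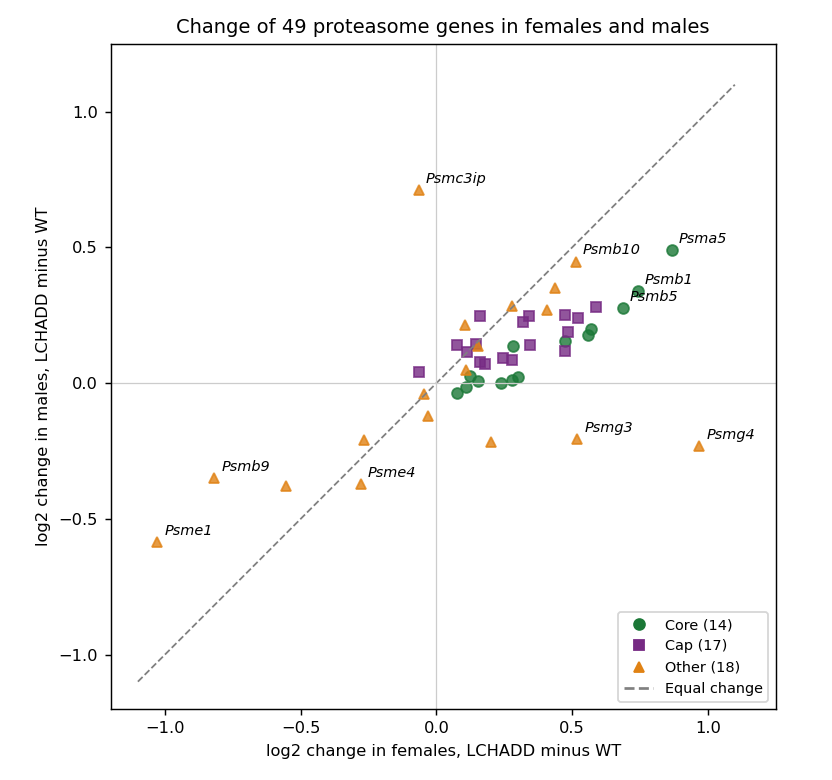
Log2 change, LCHADD minus WT, in females (horizontal axis) and in males (vertical axis) for the 49 genes, with the line of equal change. Core genes (circles) lie under the line, Psma5 at 0.87 and 0.49, while Psmg4 lies at 0.97 and -0.23.

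Of 14 proteasome-linked genes outside the symbol rule (subunits, bound enzymes, and maturation, import and regulatory factors), 13 were tested. With the sexes averaged 5 rose (38.5%), against 20.3% of all genes, with a median log2 change of 0.10. In females 3 rose (23.1%), against 16.7% of all genes, and in males 5 (38.5%), against 7.71%. Uchl5, a deubiquitinase of the cap, had a log2 change of 0.58 (SE 0.09, adjusted p = 0.00016), Sem1, the smallest lid subunit, of 0.50 (SE 0.07, adjusted p = 6.1e-05) and Ube3c, a ubiquitin ligase at the proteasome, of 0.24 (SE 0.06, adjusted p = 0.0053). Ecpas, a scaffold that clasps core and cap, and Usp14, a deubiquitinase, rose as well, by 0.24 and 0.18. Zfand5, an activator of the cap and the most abundant that did not pass, had a log2 change of 0.00095, and the core maturation factor Pomp of 0.10.

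Of 9 genes that extract and shuttle ubiquitinated proteins, 4 rose with the sexes averaged (44.4%), against 20.3% of all tested genes, with a median log2 change of 0.17: Faf1 (0.37, SE 0.07), Rad23b (0.33, SE 0.10), Nploc4 (0.22, SE 0.06) and Vcp (0.19, SE 0.05). Rad23b and Vcp passed in neither sex alone. Rad23b had 2289, 3176 and 1826 normalised reads in LCHADD females, against 1886, 1844 and 1830 in WT females. In females 2 of the 9 rose (22.2%), against 16.7% of all tested genes, and Ubqln2 fell (-0.34, adjusted p = 0.047). In males 0 of the 9 passed. The most abundant that did not pass was Ubqln4 (0.17). Of 4 genes for ubiquitin and its activating enzymes, 2 rose with the sexes averaged (50%), against 20.3% of all tested genes, with a median log2 change of 0.14: Rps27a, which encodes ubiquitin fused to a ribosomal protein (1.04, SE 0.08) and the activating enzyme Uba6 (0.30, SE 0.07). Ubb, a polyubiquitin gene and the most abundant of the list that did not pass, had a log2 change of -0.08.

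Of 9 factors that set proteasome gene transcription, 2 rose and 1 fell with the sexes averaged, with a median log2 change of 0.12. These shares, 22.2% and 11.1%, were near and below those of all genes, 20.3% higher and 20.6% lower, so the counts are no result about these factors as a group. Mafg, a partner of Nfe2l1 and Nfe2l2 on DNA, rose (0.53, SE 0.10, adjusted p = 0.00061), Nfe2l1 rose by less (0.18, SE 0.07, adjusted p = 0.048), and Keap1, which holds Nfe2l2 down, fell (-0.26, SE 0.07, adjusted p = 0.0054). Nfe2l1 passed in neither sex alone (adjusted p = 0.21 in females and 0.20 in males). Its female libraries overlapped, with 13405, 17106 and 12942 normalised reads in LCHADD and 12567, 11911 and 14135 in WT. Nfe2l2, the most abundant that did not pass, had a log2 change of 0.0045. Transcript levels say nothing of the cleavage and stability that govern the activity of Nfe2l1.

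Markers of the main cell types of the ventricle were lower in LCHADD libraries. With the sexes averaged, 7 of 9 cardiomyocyte markers, 6 of 8 endothelial, 7 of 7 fibroblast and 5 of 6 mural markers fell, against 20.6% of all tested genes. In females the counts, in the same order, were 7, 5, 7 and 1, against 17.2% of all tested genes. In males they were 2, 4, 2 and 3, against 7.77%. Summed levels of the fibroblast markers were 6562 to 8554 normalised reads in LCHADD libraries and 9938 to 11483 in WT libraries, those of the endothelium 9768 to 11115 in LCHADD libraries and 12371 to 13541 in WT libraries, and those of mural cells 7242 to 11769 in LCHADD libraries and 10163 to 12118 in WT libraries, where the genotypes overlapped. For cardiomyocyte markers the sums were 561395 to 973620 in LCHADD libraries, against 1028804 to 1114290 in WT libraries. Their part in the proteasome values was not tested.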

How the data were processed

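Per the submitters' processing notes, the authors used bcl2fastq and DESeq2 on build GRCm39; the sources used here do not give the aligner, counter, annotation or strand setting. The deposited signal values are read counts divided by 1 size factor per library: 100% of values in every library were whole multiples of 1 step within 0.01, so whole reads were recovered. Of 51912 Ensembl IDs, 51719 were matched to symbols, gene types and lengths of GENCODE vM21 (GRCm38).

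Changes are LCHADD minus WT on log2 of the value plus 1, so they are slightly too small for low genes. Limma 3.58.1 (lmFit, eBayes with trend) in R 4.3.3 was fitted to 4 group means over all 12 libraries and the 13865 genes with at least 10 in at least 3 libraries. Contrasts were females, males, the average of the sexes and the interaction. Nothing says that replicates are separate mice, so p-values measure the spread between these libraries, which may be technical. edgeR 4.0.16 and DESeq2 1.42.0 on recovered reads were alternatives, with other pseudocounts, scalings, filters and samples. The fit was also run on simulated counts, in which far fewer genes changed than were called here. Those genes changed by the same fold in both sexes, so the run cannot check the fit where changes are as many as here.

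The members and lists were chosen with earlier results of these data known, although the members' rule itself uses only symbol, gene type and level. Values in every library are given for the catalytic subunits and their replacements, Psme1 to Psme4, Psmf1 and, in each class, the 2 largest and the smallest change. For each pathway list, the 3 largest changes that passed and the most abundant gene that did not are named. Other genes were named after their values were seen. Some genes of the pathway lists are not reported here, and the lists' counts leave them out.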

Additional observations from a re-analysis of the deposited data

How the results depend on the processing

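The counts of members that passed were recomputed under 25 alternatives (24 for the average of the sexes and the interaction). Counts of core and of immunoproteasome genes in females, and of rises in females and with the sexes averaged, stayed within 1.5 times their reported values. Cap genes that passed in females numbered 10, and 5 with only the groups of the comparison in the fit or with LCHADD female 2 and WT female 3 both left out; leaving out single libraries gave 5 to 12. Members higher in males numbered 5, with 12 when only the male groups entered the fit, 9 with LCHADD female 2 and WT female 3 left out, and 3 to 9 without single libraries; members lower in males numbered 2, with 1 to 2. Core genes in males numbered 2, with 4 from the male groups alone and 1 to 4 without single libraries. Cap genes in males numbered 2, with 1 under log2 of the value plus 0.5, no filter, TMM scaling and edgeR, 6 from the male groups alone, 5 with both named libraries left out, and 0 to 5 without single libraries. Members lower with the sexes averaged numbered 5, and 3 to 5 without single libraries. For the interaction the count of 0 became 2 with DESeq2 and 0 to 3 without single libraries. The cause of these shifts was not tested. Of the members called, 18 of 26 in females, 3 of 7 in males and 20 of 30 with the sexes averaged were called in every alternative, and 0 of the 49 reversed a called direction. Log2 changes that passed in neither setting changed sign in 53 cases, most often for Psma8 (15) and Psmd9 (8).

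Same-numbered libraries did not deviate together: r between their deviations from the group means was -0.106 to 0.0491 over 18 pairs, and 3 of 12 libraries correlated best with their own number. With the replicate number as a block, cap genes that passed in males numbered 1 in place of 2.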
